A study of Mus musculus with 2 samples.

Results

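The nucleolar and ribosome biogenesis genes described here are 39 protein-coding genes that work in ribosomal RNA transcription, processing and ribosome assembly. They were chosen as the rows of the feature list whose symbol is one of 39 listed names, out of 31053 genes counted, and each of the 39 names was found. They were read in 2 single-cell RNA libraries of mouse kidney cortex at 16 weeks of age, one titled PT-I_Ppo-1 (PT I-PpoI in the text) and the other Wild-Type. In the PT I-PpoI mouse the endonuclease I-PpoI is, per the series title, expressed in proximal tubule (PT) epithelium. The allele, the promoter that drives it, any inducing agent, the sex and the number of animals pooled are not given in the sources used here. The feature list holds no entry for I-PpoI or for a Cre recombinase, so neither label could be checked against the transgene. There is 1 library per group, so no difference between them has a replicate check, and no test between genotypes was made. All intervals below are 95% intervals that cover counting error only.

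Ribosome biogenesis starts in the nucleolus, where RNA polymerase I (Pol I) transcribes the ribosomal DNA repeats into a long precursor RNA. Small nucleolar RNAs (snoRNAs) in box C/D and box H/ACA particles guide methylation and pseudouridylation of that precursor, and assembly factors cut, fold and join it with ribosomal proteins into the small and the large subunit. I-PpoI is a homing endonuclease whose recognition sequence lies in the ribosomal RNA genes, so that the ribosomal DNA repeats are among the places it cuts.

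The libraries held 93257620 and 107977310 UMIs (unique molecular identifiers, each standing for 1 captured RNA molecule) in PT I-PpoI and wild type. After cells were called, 5096 and 11964 were kept, with medians of 11048 and 2687 UMIs per cell. The kept cells of both libraries shared 22 cell barcodes. Cell classes were named from marker genes, so each class name means a class like that cell type. The PT-like class held 172 PT I-PpoI cells and 5925 wild-type cells, and 13 classes held 50 or more cells in each library. Free RNA outside cells was read from a fixed range of barcode ranks. It held 1835 CPM (UMIs per 1000000 UMIs) of the 39 genes in PT I-PpoI and 872 CPM in wild type. The transcript Gm42418, which overlaps a ribosomal RNA pseudogene, made up 12.5% and 40% of it. In barcodes of at most 100 UMIs the levels were instead 1726 and 1228 CPM, and Gm42418 made up 8.19% and 5.11%. The gap between the libraries thus depended on the barcodes taken as free RNA. Counts come from the 3′ end of transcripts and gene length was not used, so levels are compared between cells and libraries, not between genes.

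In PT-like cells the 39 genes together had close to the same level in the 2 libraries. A smaller share of them than of all genes was 1.5-fold or more higher or lower. Their summed level was 1746 CPM (1689 to 1804) in PT I-PpoI and 1693 CPM (1679 to 1707) in wild type. A large part of that sum came from Nop10, Npm1, Ncl and Polr1d, at 235, 232, 194 and 173 CPM in wild type. Summed levels and member UMIs per cell therefore weigh these abundant genes most. Rrn3, Nat10, Gar1 and Ddx21 were 1.5-fold or more higher in PT I-PpoI, and Nhp2 and Nop16 were 1.5-fold or more lower. Those 4 of 39 higher members stand beside 29.9% of the 11495 genes with 30 or more UMIs in the class, and the 2 lower members beside 8.24%. The median log2 ratio of the 39 genes, PT I-PpoI over wild type, was 0.23 (middle 50% of them from -0.04 to 0.35). The median of all 11495 genes was 0.29 (middle 50% from -0.09 to 0.67). The ratio was above 0 for 28 members and below 0 for 11. TMM scaling moved every ratio of this class by -0.36, which turned the median of the 39 genes to -0.13 beside -0.07 for all genes. Then 1 member was higher (13.4% of all genes) and 6 were lower (18.5%). Only Rrn3, at 0.67, stayed 1.5-fold or more higher, while Nat10 was at 0.58, Gar1 at 0.44 and Ddx21 at 0.38. Fewer cells with a transcript and less RNA per cell cannot be told apart in such sums.

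The 4 members that were 1.5-fold or more higher in PT-like cells belong to different steps. Their promoters are shown because these genes lay together at the upper end of the list. Each line gives the 250 bases before the RefSeq start, 5′ to 3′ on the gene's own strand, build GRCm38.p6, from chr16:13780449-13780698 (+) for Rrn3, chr2:103761271-103761520 (-) for Nat10, chr3:129831397-129831646 (-) for Gar1 and chr10:62602299-62602548 (-) for Ddx21. Capitals mark a match to 1 of 5 motifs that were searched on both strands: CACGTG (E-box), CCGGAAG (ETS-type, read as CTTCCGG on the other strand), CCAAT, the CGCG palindrome and the NRF1-type palindrome.
Rrn3: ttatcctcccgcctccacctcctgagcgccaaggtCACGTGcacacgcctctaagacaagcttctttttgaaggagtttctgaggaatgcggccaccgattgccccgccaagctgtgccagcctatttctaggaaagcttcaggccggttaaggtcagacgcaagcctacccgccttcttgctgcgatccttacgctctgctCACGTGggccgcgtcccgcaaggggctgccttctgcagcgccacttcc
Nat10: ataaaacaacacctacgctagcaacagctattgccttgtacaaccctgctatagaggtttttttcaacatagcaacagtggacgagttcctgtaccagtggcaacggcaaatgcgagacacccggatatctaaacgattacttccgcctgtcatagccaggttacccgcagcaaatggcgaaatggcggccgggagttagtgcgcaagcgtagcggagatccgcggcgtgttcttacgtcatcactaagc
Gar1: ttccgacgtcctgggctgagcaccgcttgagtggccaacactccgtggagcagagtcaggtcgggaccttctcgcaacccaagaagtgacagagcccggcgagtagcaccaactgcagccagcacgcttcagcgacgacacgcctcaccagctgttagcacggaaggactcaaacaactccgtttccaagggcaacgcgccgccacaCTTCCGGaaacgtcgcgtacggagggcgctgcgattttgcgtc
Ddx21: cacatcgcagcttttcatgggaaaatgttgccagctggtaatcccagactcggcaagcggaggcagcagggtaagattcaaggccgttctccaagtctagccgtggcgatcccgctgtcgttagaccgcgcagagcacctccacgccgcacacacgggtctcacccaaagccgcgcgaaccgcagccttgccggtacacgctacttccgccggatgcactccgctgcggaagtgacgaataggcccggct
The Rrn3 stretch held CACGTG 2 times, the Gar1 stretch held CCGGAAG, and none of the 5 motifs was found in the Nat10 and Ddx21 stretches. Over promoter windows that reach from 250 bases before to 50 after the start, 34 of the 39 members had an entry. CACGTG was in 7 of those 34 (20.6%) beside 8.09% of 27025 genes, CCGGAAG in 10 (29.4%) beside 9.93%, and CCAAT in 10 (29.4%) beside 41.1%. The CGCG and NRF1-type palindromes were in 0 of the 34, beside 0.525% and 1.07% of all genes. The motifs were chosen after the ratios were known, and a match describes letters in a window.

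Among the 7 genes of Pol I transcription, Rrn3 stood highest. Rrn3 encodes the factor that makes Pol I competent to start at the ribosomal DNA promoter. It had 31 UMIs in the PT I-PpoI cells and 248 in the wild-type cells, or 15.1 CPM (10.2 to 21.4) against 7.47 CPM (6.57 to 8.46), a log2 ratio of 1.03 (0.42 to 1.55). The 2 intervals do not overlap. Ubtf, which binds the promoter and body of active repeats, was at 63.2 against 45.4 CPM (log2 0.48, 0.21 to 0.73). Polr1a, the largest Pol I subunit, was at 13.1 against 11.1 CPM (log2 0.27, -0.38 to 0.81), a difference within counting error. The other 4 genes ranged from -0.14 for Polr1d, a subunit shared with Pol III, to 0.49 for Taf1d, a part of the promoter selectivity factor.

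Of the 8 nucleolar scaffold and helicase genes, Nat10 and Ddx21 were past 1.5-fold. Nat10, the ribosomal RNA acetyltransferase, had 38 and 323 UMIs, or 18.5 CPM (13.1 to 25.3) against 9.73 CPM (8.69 to 10.8), a log2 ratio of 0.94 (0.40 to 1.41). Ddx21, an RNA helicase of the nucleolus, had 80 and 777 UMIs, or 38.9 CPM (30.8 to 48.4) against 23.4 CPM (21.8 to 25.1), a log2 ratio of 0.74 (0.38 to 1.07). For both genes the PT I-PpoI interval lies wholly above the wild-type one. Nucleolin (Ncl) and nucleophosmin (Npm1), abundant nucleolar RNA-binding proteins, were at 226 against 194 CPM (log2 0.22, 0.08 to 0.36) and 276 against 232 CPM (log2 0.25, 0.13 to 0.37). Both ratios lie below the median of all genes in the class. The lowest ratio of this group was 0.00, for Nolc1, a chaperone of snoRNA particles.

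Within the box H/ACA particle the 4 core genes went apart. Gar1 had 40 and 375 UMIs, or 19.4 CPM (13.9 to 26.5) against 11.3 CPM (10.2 to 12.5), a log2 ratio of 0.80 (0.27 to 1.26). Nhp2 had 122 and 3132 UMIs, or 59.3 CPM (49.2 to 70.8) against 94.3 CPM (91 to 97.7), a log2 ratio of -0.66 (-0.94 to -0.41). Nop10 was at 161 against 235 CPM (log2 -0.55, -0.71 to -0.39), just short of 1.5-fold. Dkc1, the pseudouridine synthase of the particle, was at 16.5 against 11.8 CPM (log2 0.50, -0.07 to 0.99). Gar1 and Dkc1 thus had higher levels in PT I-PpoI and Nop10 and Nhp2 lower ones, and the interval of Dkc1 includes 0. Within the 1 cluster that holds most of the PT I-PpoI cells (cluster 12), Dkc1 was at 9.92 against 14.3 CPM (log2 -0.48, -1.47 to 0.29), the opposite direction, on 13 PT I-PpoI UMIs. The 3 core genes of the box C/D particle stayed between -0.24 and 0.37. Fbl (fibrillarin), its methyltransferase, was at 27.2 against 32.4 CPM (log2 -0.24, -0.67 to 0.14).

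None of the 9 small subunit genes was past 1.5-fold. They ranged from -0.42 for Imp3, a protein of the particle that guides early cleavage, to 0.58 for Tsr1, a late assembly factor, with a median of 0.24. Among the 8 large subunit genes only Nop16 was past it. Nop16 had 36 and 961 UMIs, or 17.5 CPM (12.3 to 24.2) against 28.9 CPM (27.1 to 30.8), a log2 ratio of -0.71 (-1.25 to -0.25). Bop1, Pes1 and Wdr12, which form 1 complex in large subunit processing, were at 0.21, -0.17 and -0.04. The highest of the group was Rrp1 at 0.30.

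**Figure D1:**
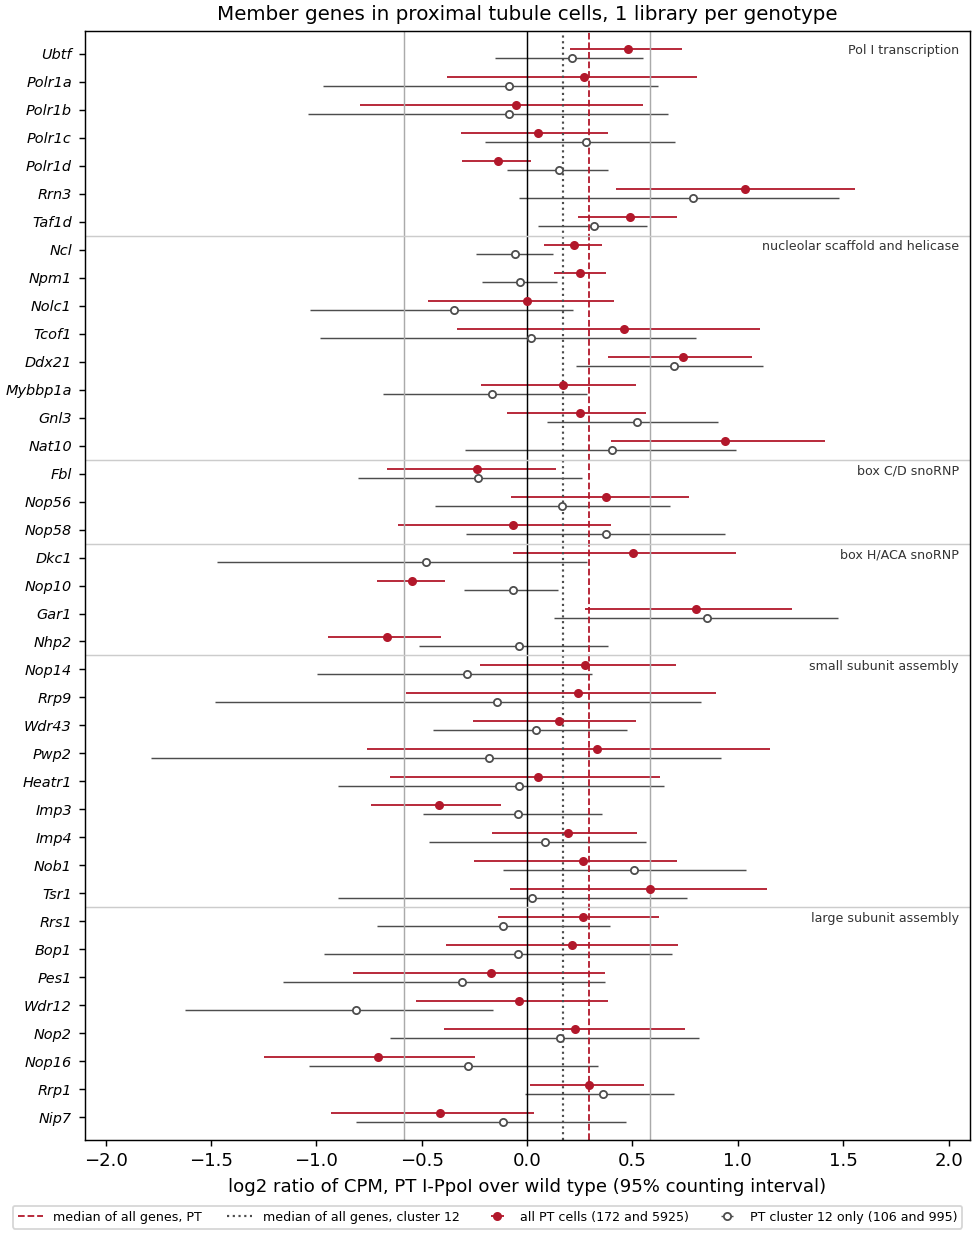
Log2 ratio of CPM, PT I-PpoI over wild type, for each of the 39 genes, grouped by role. Red points are all PT-like cells (172 and 5925), open points are PT-like cluster 12 alone (106 and 995), bars are 95% counting intervals, grey lines mark 1.5-fold and the dashed and dotted lines mark the median of all genes at 0.29 and 0.17. Rrn3, Ddx21 and Gar1 lie to the right in both, while Nhp2 lies at -0.66 over all PT-like cells and at -0.04 in cluster 12.

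The PT-like cells of the 2 libraries came largely from different clusters, and several member ratios depended on that. Cluster 12, with Slc5a12, Slc5a2 and Slc6a19 among its leading genes, which mark the early proximal tubule, held 106 of the 172 PT I-PpoI cells. The wild-type cells were spread more widely, with 1270 in cluster 7, 1059 in cluster 32, 1008 in cluster 8 and 995 in cluster 12. Within cluster 12 the summed level was 1600 CPM (1532 to 1670) in PT I-PpoI and 1552 CPM (1529 to 1575) in wild type, and the median ratio of the 39 genes was -0.04 beside 0.17 for 10178 genes. There 3 members were higher (17.6% of all genes were), namely Gar1 at 0.85 (0.13 to 1.47), Rrn3 at 0.79 (-0.04 to 1.48) and Ddx21 at 0.70 (0.23 to 1.12). 1 member was lower (6.25% of all genes were), which was Wdr12 at -0.81 (-1.62 to -0.16). Nat10 was at 0.40 (-0.29 to 0.99) there, and Nop16 at -0.28 (-1.03 to 0.34).

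Nhp2 was lower over all PT-like cells but not within cluster 12 or cluster 7. In cluster 12 it was at 36.6 CPM in PT I-PpoI and 38 CPM in wild type (log2 -0.04, -0.51 to 0.38), and in cluster 7 at 92.2 and 54.3 CPM (log2 0.78, 0.26 to 1.24). Within wild type alone it ran from 38 CPM in cluster 12 over 142 CPM in cluster 8 to 268 CPM in cluster 34, which is led by Cyp7b1 and Slc22a7. The PT I-PpoI library had 2 cells in cluster 8 and 1 cell in cluster 34. Nop10 was likewise at 150 CPM in wild-type cluster 12 against 322 and 327 CPM in clusters 8 and 34, and its ratio within cluster 12 was -0.07 (-0.30 to 0.15). Taf1d went the other way in wild type, with 87.1 CPM in cluster 12 and 12.7 CPM in cluster 7. Nat10 was at 14.7 CPM in cluster 12 and at 3.58 and 4.33 CPM in clusters 8 and 7.

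Cluster 7, led by Gatm, Spp2 and Gsta2, held 45 PT I-PpoI cells, fewer than the 50 asked of a class, so its values are given as a description. The summed level there was 2306 CPM (2172 to 2446) in PT I-PpoI and 1751 CPM (1710 to 1793) in wild type. The median ratio of 37 members with 30 or more UMIs was 0.40 beside 0.34 for 7614 genes, with 16 members higher (32.3% of all genes) and 1 lower (6.67%). Npm1 was at 505 against 312 CPM (log2 0.70, 0.49 to 0.90) and Ncl at 310 against 206 CPM (log2 0.59, 0.33 to 0.85). Cells of this cluster differed in depth, with a median of 8817 UMIs in PT I-PpoI against 2416, and a reading at matched depth follows.

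Each cell of 2000 or more UMIs was thinned at random to 2000 UMIs so that both libraries were read at 1 depth. This left 164 PT I-PpoI and 3642 wild-type PT-like cells, with 8 and 2283 cells too shallow. A PT-like cell then held on average 3.26 UMIs of the 39 genes in PT I-PpoI against 3.32 in wild type, a log2 ratio of -0.03 (-0.15 to 0.10). Averaged over all possible draws, the means were 3.17 and 3.36. With a limit of 30% mitochondrial UMIs per cell the means lay the other way round, at 3.94 and 3.69 in a single draw and 3.82 and 3.73 over all draws. In cluster 12 they were 2.89 and 3.03 (log2 -0.06, -0.24 to 0.11), and in cluster 7 4.18 and 3.49 (log2 0.26, 0.04 to 0.48), with 44 and 763 cells left in cluster 7. Free RNA would by estimate bring 0.182 and 0.539 UMIs to such a PT-like cell.

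At this depth most members were read in few PT-like cells. Npm1 was read in 33.5% (26.4 to 41.3) of the PT I-PpoI cells against 36.1% (34.5 to 37.7) in wild type, and Ncl in 28% against 28.6%. Ddx21 was read in 12.2% (7.61 to 18.2) against 4.45% (3.80 to 5.17), and Mybbp1a, a nucleolar regulator of transcription, in 11.6% (7.12 to 17.5) against 5.55% (4.83 to 6.34). Rrn3 was read in 3.66% (1.35 to 7.79) against 1.24% (0.903 to 1.65), where the intervals overlap. They also overlap for Gar1, Nat10, Nhp2 and Nop16. Gar1 was read in 3.66% (1.35 to 7.79) against 2.28% (1.82 to 2.82), and Nat10 in 4.27% (1.73 to 8.6) against 1.43% (1.07 to 1.87). Nhp2 was read in 11% (6.64 to 16.8) against 15.2% (14 to 16.4), and Nop16 in 1.83% (0.379 to 5.25) against 5.85% (5.11 to 6.66). Nop10 was read in 26.2% (19.7 to 33.6) against 37.3% (35.7 to 38.9). Unthinned, the shares were higher in PT I-PpoI for each of these genes, for example 59.3% against 49.6% for Nop10. No kidney cell type lacks these genes, so there is no class to set as a background for such shares.

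Genes of the same pathway outside the list were read in PT-like cells in the same way. Of 146 other ribosome biogenesis genes 145 reached 30 UMIs, with a median ratio of 0.19, 29 higher and 5 lower. All genes of the class had a median of 0.29, with 29.9% higher and 8.24% lower, which is the background for each list here. The 54 large subunit factors among them had a median of 0.29 with 15 higher and 1 lower, led by Spata5 at 1.15 (0.55 to 1.67), Senp3, a SUMO protease of the nucleolus, at 1.03 and Ddx55, an RNA helicase, at 1.01 (0.56 to 1.41). The 50 small subunit factors had a median of 0.18, with 9 higher and 2 lower. Of 17 other Pol I genes 4 were higher and 0 lower, among them Ercc6 at 0.82 (0.22 to 1.33) and Cd3eap, a Pol I subunit, at 0.63 (0.03 to 1.14). Of 10 other snoRNA particle assembly genes 0 were higher and 1 was lower, Nufip1 at -0.60 (-1.41 to 0.04). The 14 exosome genes, which trim the precursor RNA, had a median of 0.02, from C1d at -0.59 to Exosc10 at 0.72. All ratios in this paragraph are subject to the same shift of -0.36 under TMM scaling.

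Some neighbouring lists had higher medians than the members. Of 9 Myc network genes 7 were higher in PT I-PpoI (list median 0.90). Mxd1 at 1.38 (0.84 to 1.86) and Mnt at 0.93 (0.39 to 1.40) are known as repressors that compete with Myc for their shared partner Max, which was at 0.90 (0.44 to 1.31), and Myc itself was at 5.83 against 3.28 CPM (log2 0.88, -0.17 to 1.69). Of 8 genes linked to nucleolar stress and p53 (list median 0.34), 2 were higher, Cdkn1a at 0.96 (0.40 to 1.45) and Mdm4 at 0.84 (0.52 to 1.13). Rpl5 and Rpl11 of the same list were at 0.02 and -0.21. Transcripts that resemble ribosomal RNA made up 8.18% of PT-like UMIs in PT I-PpoI against 6.31%, and Gm26917 among them was at 669 against 234 CPM (log2 1.51). Immediate early genes, which respond within minutes to stress and to tissue digestion, had a median of 1.36 with 14 of 17 higher, led by Klf4 at 3.80 and Hspa1a at 2.79. The 82 ribosomal protein genes had a median of -0.09 with 0 higher and 1 lower. The part of immediate early genes and rRNA-like transcripts in the member ratios was not tested.

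Across the 13 classes the summed level of the 39 genes was lowest in thick ascending limb-like and distal convoluted tubule-like cells and highest in T or NK-like cells in both libraries. In wild type the summed level was lowest at 1541 CPM (1504 to 1579) in thick ascending limb-like, 1600 CPM (1536 to 1665) in distal convoluted tubule-like and 1693 CPM (1679 to 1707) in PT-like cells. The first 2 of these intervals overlap. Connecting tubule-like, macrophage-like, intercalated-like and endothelium-like cells followed at 1861, 1973, 2136 and 2213 CPM, then mural-like cells at 2300 CPM (2204 to 2399) and principal-like cells at 2423 CPM (2352 to 2495). Parietal epithelium-like, dendritic-like, thin limb-like and T or NK-like cells were highest, at 2832, 2852, 2875 and 2986 CPM, and neighbours in that order do not differ beyond counting error. In PT I-PpoI the range was from 1502 CPM (1476 to 1528) in distal convoluted tubule-like to 3986 CPM (3838 to 4138) in T or NK-like cells. Over the 13 classes the summed levels of the 2 libraries had Pearson's r of 0.95, and the members against ribosomal protein genes had r of 0.75 in wild type and 0.86 in PT I-PpoI. These are descriptions over classes that share a library. Npm1 alone had 938 CPM in wild-type dendritic-like cells and 173 CPM in thick ascending limb-like cells, so the order of the sums partly follows it. Not every member followed the others. In wild type, r of 1 member with the sum of the others ran from -0.53 for Rrs1 to 0.84 for Tcof1.

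**Figure D2:**
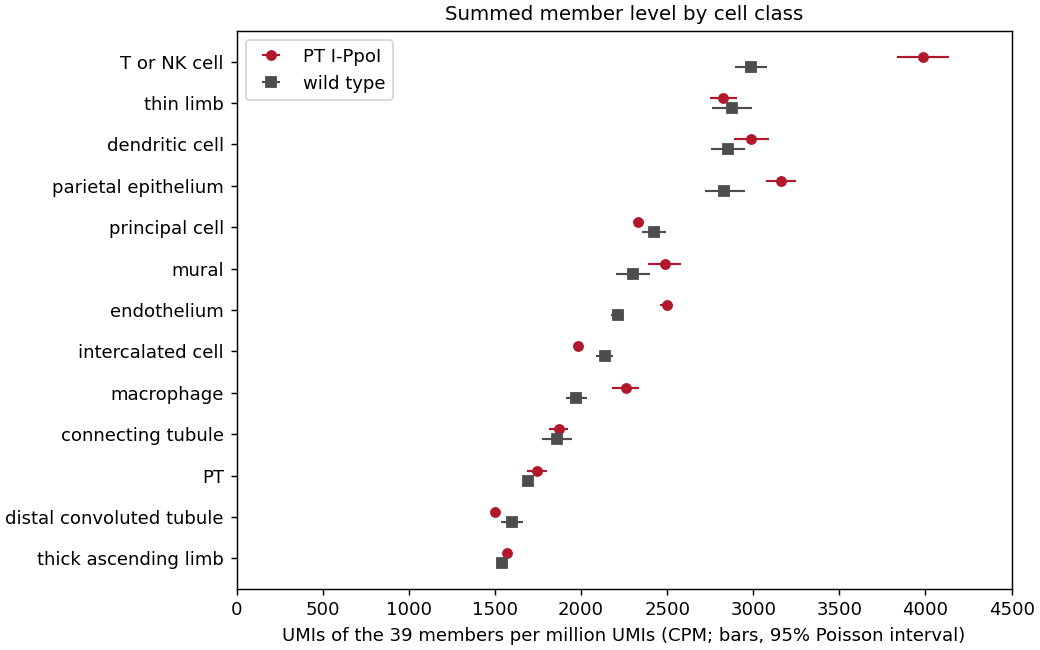
Summed level (CPM) of the 39 genes in each cell class, with red circles for PT I-PpoI, grey squares for wild type and bars for 95% Poisson intervals. T or NK-like cells are highest at 3986 and 2986 CPM, and PT-like cells are near the lower end at 1746 and 1693 CPM.

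Single members differed in how widely they ran over classes in wild type. Among those with 30 or more UMIs in their lowest class, Tcof1 (treacle), a scaffold of Pol I transcription, had the widest span, from 6.87 CPM in PT-like to 64.3 CPM in T or NK-like cells, a log2 span of 3.23. Npm1 ran from 173 CPM in thick ascending limb-like to 938 CPM in dendritic-like cells (2.44), and Ddx21 from 20.8 CPM in distal convoluted tubule-like to 88.5 CPM in T or NK-like cells (2.09). The narrowest spans were those of Mybbp1a (0.65, from 28.8 to 45.3 CPM), Nolc1 (0.92) and Wdr12 (0.98). Ncl spanned 1.08, from 194 CPM in PT-like to 411 CPM in T or NK-like cells, and Fbl spanned 1.98, from 21.7 CPM in thick ascending limb-like to 85.7 CPM in dendritic-like cells. PT-like cells had the lowest level of the 13 classes for Ncl, Tcof1, Dkc1 and Rrp1 in both libraries. Nhp2 in wild type (94.3 CPM) and Nat10 in PT I-PpoI (18.5 CPM) were the members whose highest class was PT-like.

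Between the libraries the tubule classes other than PT-like had member medians between -0.07 and 0.06. The median ratio was 0.06 for 33 members in thin limb-like cells (0.02 for all genes), 0.06 for 39 in thick ascending limb-like (0.11), -0.01 for 39 in distal convoluted tubule-like (-0.01), -0.07 for 36 in connecting tubule-like (0.08), 0.00 for 39 in principal-like (0.01) and -0.06 for 39 in intercalated-like cells (-0.09). In thin limb-like cells 6 members were 1.5-fold or more higher (9.74% of all genes) and 2 lower (6.25%), with Fbl at 47.8 against 27.6 CPM (log2 0.77, 0.10 to 1.54) and Gnl3 (nucleostemin) at -0.74. In thick ascending limb-like cells 1 was higher (8.22%) and 0 lower (3.99%), which was Pwp2 at 133 and 17 UMIs (log2 0.77, 0.08 to 1.63). In distal convoluted tubule-like cells 2 were higher (8.8%) and 2 lower (10.1%). There Pes1 had 118 and 4 UMIs, or 13.8 CPM (11.4 to 16.5) against 2.68 CPM (0.730 to 6.86), a log2 ratio of 2.20 (0.97 to 4.27), and Taf1d was at 19.3 against 36.2 CPM (log2 -0.91, -1.36 to -0.43). Pes1 in that class rests on 4 wild-type UMIs. Thick ascending limb-like cells came from different clusters in the 2 libraries, with 316 of 1433 PT I-PpoI and 725 of 983 wild-type cells in cluster 19. The summed level was 1296 CPM (1238 to 1357) against 1421 CPM (1365 to 1478) in cluster 19, 1454 CPM (1420 to 1489) against 1574 CPM (1479 to 1673) in cluster 2 and 1644 against 1641 CPM in cluster 1.

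In connecting tubule-like cells 2 members were higher (11.5%) and 1 lower (6.03%), Gnl3 at -0.93 (-1.72 to -0.12). In principal-like cells 2 were higher (6.72%) and 1 lower (6.44%), with Tsr1 at 89 and 6 UMIs (log2 1.53, 0.46 to 3.13) and Pwp2 at -0.76. In intercalated-like cells 0 were higher (3.4%) and 2 lower (8.66%), Nat10 at -0.80 (-1.34 to -0.25) and Pes1 at -0.79 (-1.21 to -0.37). Nat10 was thus higher in PT I-PpoI over all PT-like cells and lower in intercalated-like cells, a difference between classes that was not tested. Within PT-like cluster 12 alone the interval of Nat10 included 0 (log2 0.40, -0.29 to 0.99). In parietal epithelium-like cells the median of 34 members was 0.23 (0.10 for all genes), with 5 higher (11.7%) and 1 lower (4.91%), and Rrs1, a factor that brings the smallest large-subunit RNA into the particle, had 56 and 6 UMIs, or 33.7 CPM (25.4 to 43.7) against 7.3 CPM (2.68 to 15.9).

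The counts in these classes moved with the processing. Over the alternatives at the same 1.5-fold limit, the number of higher members ran from 0 to 8 in thin limb-like, 1 to 5 in thick ascending limb-like, 1 to 11 in distal convoluted tubule-like, 0 to 4 in connecting tubule-like, 1 to 4 in principal-like, 0 to 3 in intercalated-like and 0 to 8 in parietal epithelium-like cells. The number of lower members ran from 0 or 1 to at most 5 in each. The 11 in distal convoluted tubule-like cells came from the mean of per-cell CPM, where 22.1% of all genes were higher.

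In the vascular and immune classes member medians lay between 0.12 and 0.47. They were 0.17 for 39 members in endothelium-like cells (0.20 for all genes), 0.12 for 30 in mural-like (0.14), 0.21 for 33 in macrophage-like (0.14) and 0.20 for 32 in dendritic-like cells (0.16). In endothelium-like cells 1 member was higher (15.3%) and 0 lower (6.75%). In mural-like cells 4 were higher (15.8%) and 0 lower (8.88%), with Nop16 at 0.89 (0.02 to 1.87) and Wdr43, an early small subunit factor, at 0.84. In macrophage-like cells 6 were higher (14.1%) and 0 lower (7.32%), with Dkc1 at 0.93 (0.21 to 1.68) and Nop58, a core protein of box C/D particles, at 0.78. In dendritic-like cells 6 were higher (16%) and 0 lower (5.51%), with Tcof1 at 68 and 29 UMIs, or 59.2 against 26.5 CPM (log2 1.15, 0.52 to 1.84). TMM scaling moved the ratios by -0.13 to -0.18 in these 4 classes and turned the endothelium-like and mural-like medians to 0.00 and -0.01. Over the alternatives the number of higher members ran from 0 to 3 in endothelium-like, 0 to 5 in mural-like, 1 to 9 in macrophage-like and 3 to 11 in dendritic-like cells.

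Other gene lists also differed between the libraries, but not alike in these 4 classes. Cell cycle genes had a median ratio of 1.23 with 9 of 12 higher in macrophage-like cells and 0.68 with 12 of 20 higher in dendritic-like cells. Their median was 0.18 with 1 of 12 higher in endothelium-like and -0.08 with 1 of 5 higher in mural-like cells. A UMI of a cycling marker was held by 9.02% against 0.735% of macrophage-like and 33.9% against 15.7% of dendritic-like cells. Without those cells the 39 genes stood at 2187 against 1967 CPM in macrophage-like and 2851 against 2745 CPM in dendritic-like cells. The cycling shares are of unthinned cells, and a deeper cell is more likely to hold such a UMI. Median depths were 4940 against 2701 UMIs in macrophage-like and 9688 against 4638.5 UMIs in dendritic-like cells. The share was higher in PT I-PpoI in every compared class but mural-like cells (1.52% against 5.91%). Immediate early genes were higher for 15 of 18 in endothelium-like cells (median 1.34) and 13 of 18 in mural-like cells (median 0.91). They were higher for 6 of 18 in macrophage-like (median 0.47) and 5 of 18 in dendritic-like cells (median 0.36). The part of these genes in the member ratios was not tested.

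**Figure D3:**
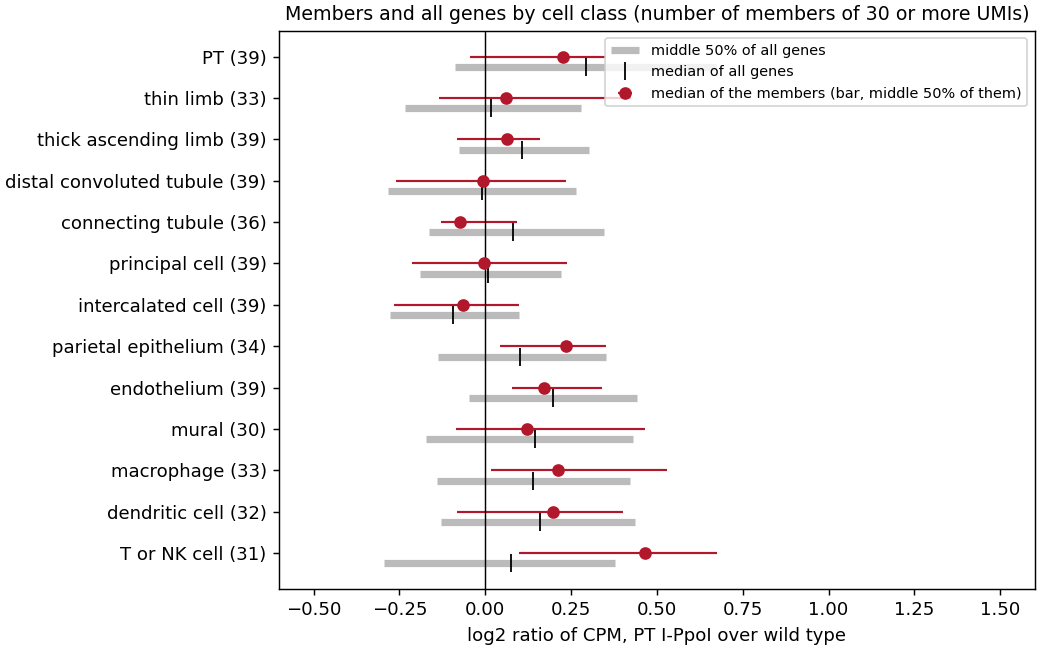
Median log2 ratio of CPM, PT I-PpoI over wild type, of the members with 30 or more UMIs in each cell class (red, bar the middle 50% of them) beside the median (black) and middle 50% (grey) of all genes past the same minimum. The T or NK-like class lies farthest right at 0.47, beside 0.08 for all genes, and PT-like cells are at 0.23 beside 0.29.

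T or NK-like cells (138 from PT I-PpoI, 470 from wild type) had the largest member ratio of the 13 classes. Their summed level was 3986 CPM (3838 to 4138) against 2986 CPM (2895 to 3079), and the median ratio of 31 members was 0.47 (middle 50% from 0.10 to 0.68) beside 0.08 for all 6282 genes. Of these 31, 11 were 1.5-fold or more higher (13.1% of all genes) and 0 lower (14%). All 3 core genes of the box C/D particle were among the 11. Nop56 had 72 and 74 UMIs, or 105 CPM (82.4 to 133) against 54.1 CPM (42.5 to 67.9), a log2 ratio of 0.96 (0.47 to 1.45). Fbl had 68 and 71 UMIs, or 99.5 CPM (77.3 to 126) against 51.9 CPM (40.5 to 65.5), a log2 ratio of 0.94 (0.44 to 1.44). For both genes the intervals of the 2 libraries do not overlap. In the box H/ACA particle Gar1 was at 1.00 (0.26 to 1.74) and Dkc1 at 0.81 (0.11 to 1.50), while Npm1 was at 1119 against 698 CPM (log2 0.68, 0.54 to 0.82). The 6 small subunit members had a median of -0.14.

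Thinned to 2000 UMIs, a T or NK-like cell held 7.53 member UMIs in PT I-PpoI (131 cells) and 6.05 in wild type (358 cells), a log2 ratio of 0.32 (0.21 to 0.43), and read 5.23 and 4.58 of the 39 genes. Npm1 was then read in 84.7% (77.4 to 90.4) of cells against 72.3% (67.4 to 76.9), and Nop56 in 22.1% (15.4 to 30.2) against 8.66% (5.96 to 12.1). Unthinned, these shares were 95.7% against 78.1% and 31.2% against 13.2%. Gar1 was read in 5.34% (2.17 to 10.7) against 4.47% (2.58 to 7.16), shares that overlap at this depth. The other classes differed less at matched depth, from -0.13 (-0.25 to -0.0037) in intercalated-like to 0.20 (0.01 to 0.38) in parietal epithelium-like cells.

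Several measures moved with the T or NK-like result. Cell cycle genes had a median ratio of 1.39 there with 17 of 18 higher, and 22.5% of PT I-PpoI cells held a UMI of a cycling marker against 8.09% in wild type. Without those cells the summed level was 3853 against 3012 CPM. The cycling shares are of unthinned cells, and in cluster 14, which held most of the class, median depths were 4197 against 2366 UMIs. Ribosomal protein genes had a median of 0.36, and rRNA-like transcripts made up 3.97% of the UMIs against 8.13%. The class joins clusters 14 and 35, and cluster 35 held 51 wild-type cells and 1 PT I-PpoI cell. In cluster 35, 10 endothelium markers were detected beside 9 T or NK markers, so it is not purely T or NK-like. In cluster 14 alone (137 and 419 cells) the summed level was 4040 CPM (3889 to 4196) against 3050 CPM (2947 to 3155). A single PT I-PpoI cell held 163 member UMIs of its 7065, and without the 3 cells of most member UMIs in each library the summed level was 3538 against 2948 CPM. The count of 11 higher members (13.1% of all genes) fell to 5 (7.77%) when mitochondrial, haemoglobin and rRNA-like genes were left out of the total. It fell to 6 (9.33%) with free RNA subtracted. In both cases the member median was 0.30 beside -0.09 for all genes. Over all alternatives at 1.5-fold the count ran from 5 to 14.

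**Figure D4:**
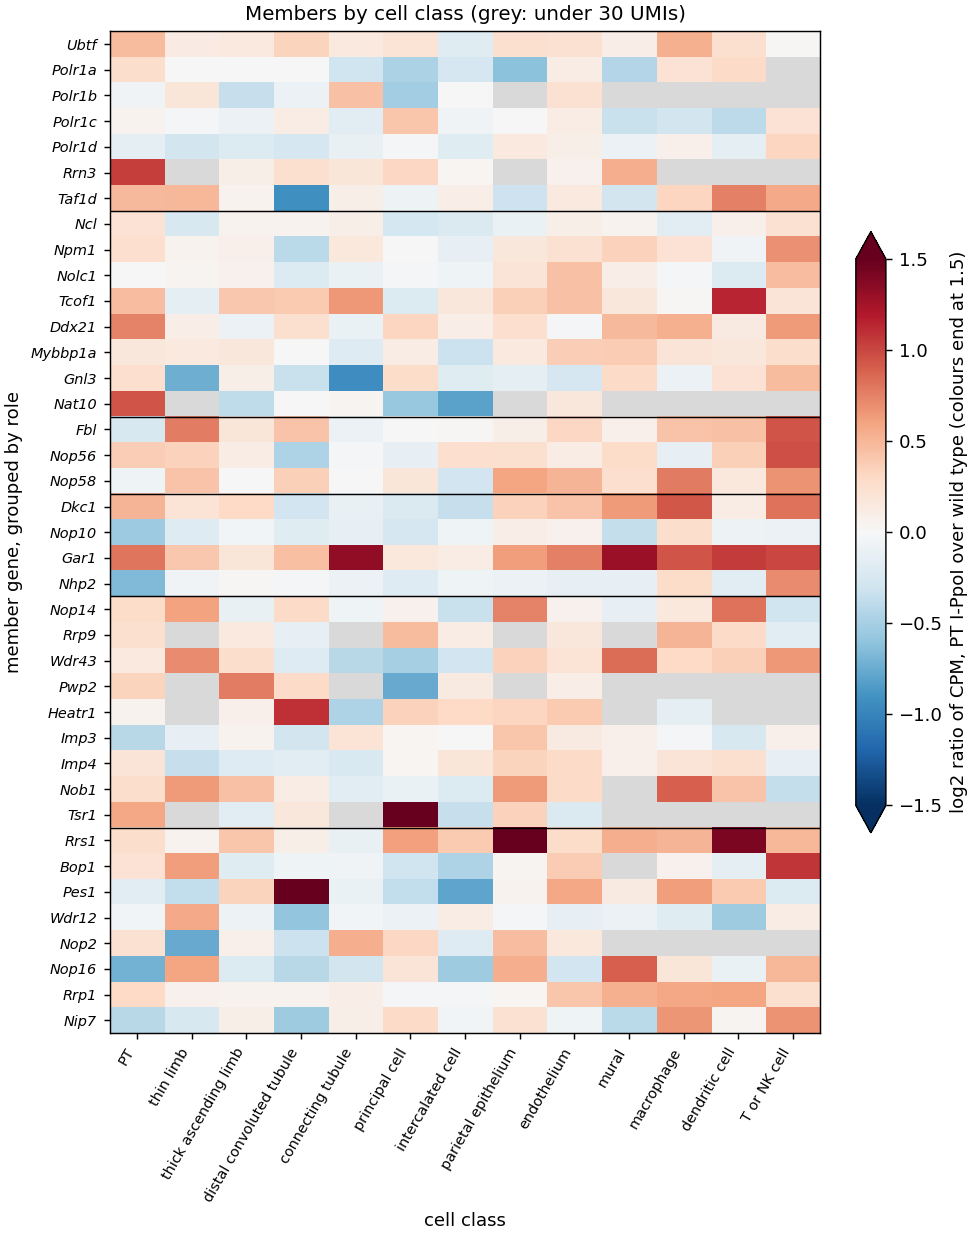
Log2 ratio of CPM, PT I-PpoI over wild type, of each of the 39 genes (rows, grouped by role) in each of 13 cell classes (columns), with red higher and blue lower in PT I-PpoI, and grey for fewer than 30 UMIs over both libraries. The Gar1 row is above 0 throughout, from 0.11 in intercalated-like to 1.34 in connecting tubule-like cells, and the T or NK-like column is red for the box C/D genes at 0.68 to 0.96.

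Of the members read in every class, only Gar1 had the same direction in each. It was higher in PT I-PpoI in 13 of 13 classes and 1.5-fold or more higher in 8 of them. Of 4390 genes with 30 or more UMIs in each class, 2% were higher in all 13 and 0.661% were 1.5-fold or more higher in 8 or more. Of the 28 members tested that way, 1 met each rule, and 0 were lower in every class. In endothelium-like cells, where it was read most deeply outside the tubule, Gar1 had 283 and 127 UMIs, or 37.9 CPM (33.6 to 42.6) against 22.4 CPM (18.7 to 26.7), a log2 ratio of 0.76 (0.45 to 1.07). In macrophage-like and dendritic-like cells the log2 ratios were 0.95 (0.17 to 1.76) and 1.05 (0.15 to 2.06). In thick ascending limb-like, principal-like and intercalated-like cells they were 0.18, 0.16 and 0.11. The interval includes 0 in those 3 classes and in the thin limb-like, distal convoluted tubule-like, connecting tubule-like and parietal epithelium-like ones. Over the whole libraries Gar1 had 1724 UMIs (18.5 CPM) in PT I-PpoI and 1015 (9.4 CPM) in wild type.

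The free RNA of the 2 libraries, as read from the fixed range of barcode ranks, differed in Gar1 the same way. It held 23.7 CPM (60 UMIs) in PT I-PpoI and 5.43 CPM (55 UMIs) in wild type. The level of Gar1 in barcodes of at most 100 UMIs is not given here. Subtraction of free RNA left the log2 ratio at 0.62 in PT-like and 0.52 in endothelium-like cells, and at 0.00, 0.01 and -0.03 in thick ascending limb-like, principal-like and intercalated-like cells. The ratio in the latter 3 classes thus came down to about 0, with a change of sign in intercalated-like cells. Its partners did not share the pattern: Nhp2 and Nop10 were each above 0 in 3 of 13 classes and Dkc1 in 9. Rrn3 was above 0 in each of the 8 classes where it reached 30 UMIs, from 0.04 in intercalated-like to 1.03 in PT-like cells. No share of all genes is given for that rule. Under that minimum Rrn3 was lower in PT I-PpoI in macrophage-like (3.49 against 5.88 CPM) and thin limb-like cells (9.44 against 10 CPM). It was higher there in parietal epithelium-like (13.2 against 6.08 CPM), dendritic-like (10.4 against 4.56 CPM) and T or NK-like cells (17.6 against 7.31 CPM).

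**Figure D5:**
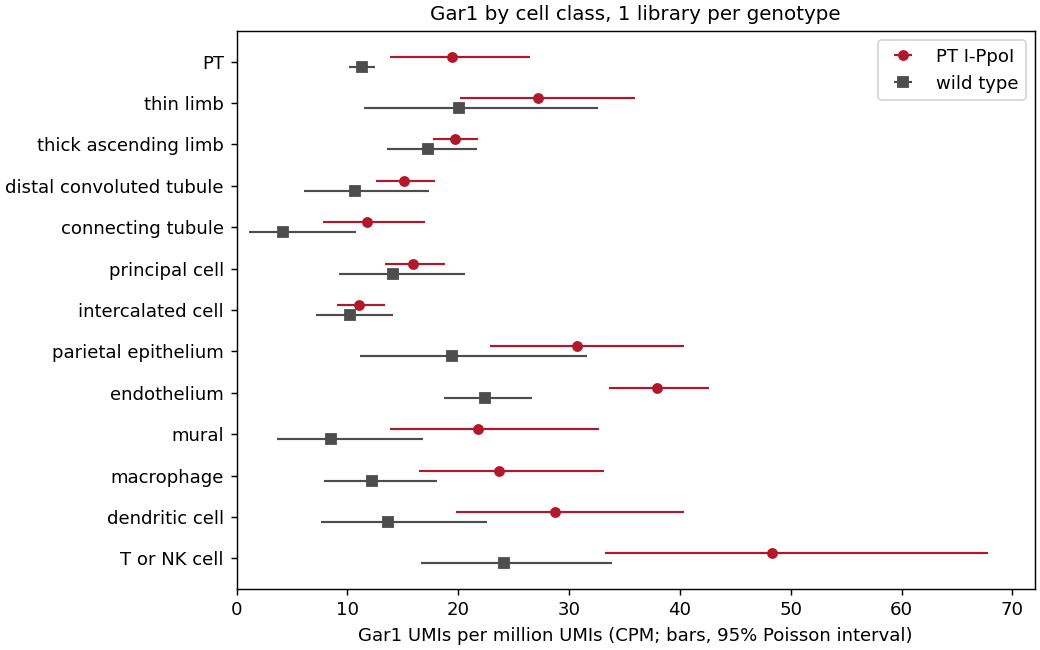
Gar1 level (CPM) in each cell class, with red circles for PT I-PpoI, grey squares for wild type and bars for 95% Poisson intervals. The red point is to the right in all 13 classes, with intervals that do not overlap in PT-like (19.4 and 11.3 CPM) and endothelium-like cells (37.9 and 22.4 CPM).

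The list also shares a feature of gene structure that its choice did not use. In GENCODE M21, 8 of the 39 genes (20.5%) contain a snoRNA gene on the same strand, 29 snoRNA genes in all, beside 1.17% of 21974 counted protein-coding genes. Taf1d holds 8 of them, Nop56 holds 5, Nop58 holds 4, and Ncl, Gnl3 and Wdr43 hold 3 each. The snoRNAs themselves are short and lack a tail, so these libraries do not measure them. The 6 members past 1.5-fold in PT-like cells are protein-coding genes of build mm10 at chr16:13780708-13814839 (Rrn3, + strand), chr2:103721256-103761270 (Nat10, - strand), chr3:129824912-129831396 (Gar1, - strand), chr10:62580251-62602281 (Ddx21, - strand), chr11:51619735-51623714 (Nhp2, + strand) and chr13:54584185-54590090 (Nop16, - strand), and none of these 6 contains a snoRNA gene. No member has another counted gene overlapping it on the same strand. Reads shared with a processed copy elsewhere in the genome would be uncertain, and how such reads were counted is not given in the sources used here.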

How the data were processed

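Single-cell RNA was counted in 2 libraries, and the deposited files hold the authors' raw counts, UMIs per gene and barcode in unfiltered matrices, not normalized. The chemistry was 10x 3′ v3.1, per the labels' protocols. The submitters' processing notes name Cell Ranger 3.1, Seurat 3 and mm10, whereas the matrices name Cell Ranger 4, per the file headers. Members and gene lists were chosen with earlier results of these data known.

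Cells were called by depth (5651 and 3655 UMIs) or, from 500 UMIs, by a multinomial Monte Carlo test against the free RNA profile at a Benjamini-Hochberg rate of 0.01. Cells under 200 genes or over 50% mitochondrial UMIs were left out. The automatic doublet threshold of Scrublet in scanpy marked 0.442% and 2.16% of cells, so a score limit of 0.25 was used instead, which removed 1.96% and 2.34%. Cells were clustered together (2000 variable genes, 30 components, 15 neighbours, Leiden resolution 1) and clusters named from 3 or more detected markers. T cell and NK cell markers were merged after 1 cluster stayed unnamed.

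UMIs were summed per class and library and scaled to CPM, with Poisson intervals. For log2 ratios 0.5 was added to each count and the intervals are exact conditional binomial ones, and shares have Clopper-Pearson intervals. Called means 1.5-fold among genes with 30 or more UMIs over both libraries. Where 1 library holds most UMIs of a class, a gene can reach that minimum through it alone. PCR duplicates were removed by UMI before deposit, so intervals cover counting error only, and neither cells nor genes were taken as replicates.

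Named were, in PT-like cells, all members past 1.5-fold and 6 fixed genes. In other classes up to 4 members furthest from 0 with 30 UMIs in the higher library were named. Over classes the 3 widest and 3 narrowest spans were named, and up to 4 genes of each other list. The other genes and cells named (Nop10, Dkc1, Mybbp1a, Myc, the second PT-like cluster, cells of most member UMIs) were chosen after their values were seen.

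Free RNA per class was estimated from markers of other classes, by an estimator replaced once after its values were seen. It failed in parietal epithelium-like and mural-like cells, which were left out of that alternative. TMM factors came from edgeR 4.0.16 on class sums, with no edgeR test. The ratio and count steps were tested on simulated data. Python 3.11.15, numpy 2.4.6, scipy 1.17.1, pandas 2.3.3, scanpy 1.11.5, leidenalg 0.10.2, matplotlib 3.10.9 and R 4.3.3 were used. Alternatives varied scaling, free RNA, depth, weighting, mitochondrial limit, minimum UMIs, clustering, fold and thinning.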

Additional observations from a re-analysis of the deposited data

How the results depend on the processing

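No paired analysis was possible because each group is 1 library. With 1 library per genotype, depth, dissociation and animal cannot be told apart from genotype. Of 275 log2 ratios computed under an alternative 31 changed sign, 11 of them where the interval of the reported value excluded 0, and the counts of called members moved as given beside them.

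In PT-like cells TMM factors gave a median of -0.13 with 1 member higher (13.4% of all genes) and 6 lower (18.5%), Ncl at -0.14 and Npm1 at -0.11. Cluster 12 alone gave a median of -0.0385, 1 lower (6.25%), Ncl at -0.0556 and Npm1 at -0.0317. Mean per-cell CPM gave 8 higher and Npm1 at -0.0699. A mitochondrial limit of 30% gave 7 higher, and a 2-fold limit gave 1 higher and 0 lower. Subtracted free RNA gave 4 lower (12.2% of all genes), and cells of 2000 to 12000 UMIs gave 4 lower (15.7%). Thinned cells gave 10 of 38 members higher (35% of all genes) and 8 lower (15.2%). For mean per-cell CPM, the mitochondrial limit and the 2-fold limit the share of all genes is not given here. Thinned to 1000 UMIs, the matched-depth log2 ratio was -0.25 in the draw made (1.38 against 1.64 UMIs per cell), whereas the means expected over all draws were 1.59 and 1.65. The endothelium-like median was -0.00196 under TMM, -0.0092 without mitochondrial, haemoglobin and rRNA-like genes and -0.0421 with free RNA subtracted. The mural-like median under TMM was -0.0093. The cause of these shifts was not tested.

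In T or NK-like cells medians ran from 0.28 to 0.48. The count of higher members was 5 without mitochondrial, haemoglobin and rRNA-like genes (7.77% of all genes) and 6 with free RNA subtracted (9.33%). It was 7 where free RNA came from barcodes holding at most 100 UMIs and 7 with thinned cells. It was 6 by mean per-cell CPM, 7 without cells holding a cycling UMI and 2 at 2-fold. The count of lower members was 1 for cells of 2000 to 12000 UMIs (14.1% of all genes), 1 thinned, 1 by mean per-cell CPM and 2 without cycling cells. Where no share of all genes stands beside a count, it is not given here. Free RNA from barcodes of at most 100 UMIs, the removal of cycling cells, the removal of PT-like clusters led by rRNA-like genes and the expectation over draws were added after seeing the data.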

Other observations

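B-like cells were left out of the comparison because 47 were kept in PT I-PpoI, against 138 in wild type. Their summed level of the 39 genes was 1110 CPM (1033 to 1190) in PT I-PpoI and 2401 CPM (2253 to 2556) in wild type. Ribosomal protein genes made up 9.85% and 18.8% of their UMIs, and the medians were 14799 and 2024 UMIs per cell. The leading genes of this cluster were immunoglobulin genes (Igkc, Igha, Iglc1) beside Jchain and Mzb1, so it can hold plasma cells beside B cells. How the 2 libraries differ in that mix, and its part in the summed level, was not tested. In cells whose leading genes were cell cycle genes, 33 and 20 in number, the 39 genes stood at 2576 CPM (2450 to 2708) and 2122 CPM (1894 to 2369). Neutrophil-like cells, 41 and 23 in number, had the lowest level of any named class, at 644 CPM (493 to 827) and 866 CPM (626 to 1166).

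Wild-type PT-like cells had their lowest level of the 39 genes where they were read least and their highest where read most. It was 1389 CPM (1312 to 1470) for cells of 500 to 1000 UMIs, 1661 CPM (1617 to 1707) for 2000 to 4000 UMIs and 1784 CPM (1757 to 1811) for 16000 to 32000 UMIs. Depth, cluster and rRNA-like share cannot be told apart here. Wild-type cluster 32 (median 639 UMIs) had 24.5% rRNA-like UMIs and 1306 CPM of the 39 genes. Cluster 29 (median 12839 UMIs) had 3% and 1851 CPM, and cluster 12 (median 9638 UMIs) 5.92% and 1552 CPM. PT I-PpoI cells of 16000 to 32000 UMIs, 33 in number, were at 1952 CPM (1848 to 2060), and those of 8000 to 16000 UMIs, 74 in number, at 1592 CPM (1509 to 1678) against 1673 CPM (1649 to 1696) in wild type.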
